A study of Caenorhabditis elegans with 8 samples.

Results

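Gonads of sin-3 mutants were set directly against gonads of hda-3 mutants, across all genes. Of the 8 RNA sequencing libraries of Caenorhabditis elegans gonads analysed here, the 5 titled as sin-3 or hda-3 were compared: 3 libraries of sin-3(syb2172), replicates 3, 4 and 5, and 2 of hda-3(ok1991), replicates 4 and 5. The 3 wild-type (wt) libraries, replicates 3, 4 and 5, entered the same model and are given as the reference level. Each library holds gonads dissected from 9 to 12 young adults, with complementary DNA amplified by the Smart-seq2 method, so every value is a mean over pooled animals and over all cells of the gonad. Each mutant group is 1 allele, and the labels do not describe the lesions; they state 3 independent biological replicates per strain, and 2 are analysed here for hda-3. The p-values below measure the spread between these libraries.

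SIN-3 holds together a co-repressor complex found from yeast to mammals: the protein has no enzyme activity of its own and brings histone deacetylases to chromatin. HDA-3 is a class I deacetylase, an enzyme that removes acetyl groups from histones, and worms have the related class I enzymes HDA-1 and HDA-2. Loss of the scaffold and loss of 1 enzyme are therefore different lesions, and the comparison asks what they change differently. The hermaphrodite germ line makes sperm in the last larval stage and then switches to oocytes for the rest of its life, so a young adult gonad arm carries dividing germ cells, meiotic cells and growing oocytes, wrapped in somatic sheath cells and a basement membrane.

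Reads counted on genes ranged from 14550417 in hda-3 replicate 5 to 24389531 in sin-3 replicate 3. Nuclear ribosomal RNA took between 41.8 and 79.0% of them. Both the lowest and the highest TMM scaling factor belonged to sin-3 (0.424 for replicate 3, 2.297 for replicate 5), and those of hda-3 were 1.62 and 1.60. Levels are CPM, read counts divided by TMM-scaled library sizes, and differences are log2 values of sin-3 minus hda-3. No difference between the mutants passed the test in 10 marker genes of the germ line, or in puf-5. The gene gld-1, a translational repressor of meiotic germ cells, differed by 0.03 (adjusted p = 0.96 in edgeR), the yolk receptor gene rme-2 by -0.01 (0.995), the oocyte RNA-binding protein gene puf-5 by 0.05 (0.97), nos-3 by -0.04 (0.95) and the meiotic cohesin gene rec-8 by -0.02 (0.96), all near 0. The largest differences were those of oma-2 (0.87, adjusted p = 0.26), glh-1 (0.65, 0.417) and him-3 (0.42, 0.375), and pgl-1, syp-1 and cgh-1 differed by 0.23, 0.31 and -0.17 (0.73, 0.592 and 0.875). In 8 of 16 stem cell and meiotic entry genes and 14 of 34 oocyte and eggshell genes every sin-3 library lay above both hda-3 libraries, an arrangement met by 17.5% of all genes tested, and in 0 of either list did every one lie below. The median over all 10302 genes tested was 0.06; it was -0.04 with RLE size factors and -0.06 with factors computed on autosomal genes, and differences are to be read against that shift.

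The level of each mutated gene comes before the other results. The gene sin-3 (WBGene00004117; WBcel235 chromosome I, 8416816 to 8425051, plus strand) had 3 reads in all 3 sin-3 libraries together and 3574 in the hda-3 libraries, where its level was 58.0 and 57.2 CPM, close to the 55.1 ± 3.34 CPM of wt (SD, n = 3). The pooled ratio was 1700.5-fold, with an exact 95% interval for counting error of 581 to 8250. The span of sin-3 overlaps the coding gene F02E9.5, which was itself lower by -1.48 (adjusted p = 0.00349), and reads of the pair cannot be told apart without a stated strand setting. On the minus strand of the same chromosome, hda-3 (WBGene00001836; 11912793 to 11917712) stood at 13.9 and 18.7 CPM in hda-3 libraries and at 35.7, 37.6 and 50.9 CPM in sin-3 libraries. It was higher in sin-3 by 1.35 (SE 0.25, adjusted p = 0.00258), a call lost without hda-3 replicate 4 (adjusted p = 0.0649); in fits that leave out 1 hda-3 library, the lone one is assumed to vary like the other groups. The hda-3 libraries thus kept reads on hda-3, and since the lesion is not described, the level does not check it. The other class I genes did not pass the test: hda-1 stood at 89.6 ± 3.81 CPM in sin-3 and 91.5 ± 2.52 CPM in hda-3 (n = 3 and 2; adjusted p = 0.96), and hda-2 at 17.5 ± 3.98 and 21.5 ± 1.82 CPM (adjusted p = 0.55). Of the 9 genes of the SIN3 complex list, sin-3 and hda-3 were the only ones called in this fit.

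The mutants differed at 1575 genes at an adjusted p under 0.05 (edgeR quasi-likelihood test), which is 15.3% of the genes tested. Most calls went one way: 1308 genes (12.7%) were lower in sin-3 and 267 (2.59%) were higher. The counts of each gene list below are to be read against these shares. The lower genes were mostly near silent in sin-3 and in wt. Their median level was 5.44 CPM in hda-3 against 0.219 CPM in sin-3 and 0.104 CPM in wt, and 1117 of the 1308 had a mean under 1 CPM in wt. Their median difference was -4.67, and 927 of them differed more than 16-fold. The higher genes were expressed in wt at a median of 2.74 CPM, against 6.80 CPM in sin-3 and 1.15 CPM in hda-3. Their median difference was 2.38, with 36 genes past 16-fold.

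Many of the lower genes did not pass the filter on low counts without the hda-3 libraries. Of the 10302 genes, 7669 passed it without them, and 303 of the lower genes and 236 of the higher genes were among these. Without hda-3 the smallest group has 3 libraries, so a gene needs enough counts in 3 libraries, where the main filter asks for 2. Failing this stricter filter therefore does not show that a gene entered the test only through hda-3 libraries. Lower genes that did enter only through that group, where they are high, were selected toward a difference. How many did so was not counted. The fit limited to those 7669 genes, an alternative added after seeing the data, called 274 lower and 130 higher. Leaving out 1 library at a time gave 1002 to 1674 lower genes and 88 to 524 higher genes. The lowest count of higher genes, 88, came without hda-3 replicate 5, and 89 came without hda-3 replicate 4. Dropping sin-3 replicate 4 gave 110, and dropping replicate 5 of that group gave the highest, 524. In all 8 such fits 892 of the lower and 49 of the higher genes kept their call.

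**Figure D1:**
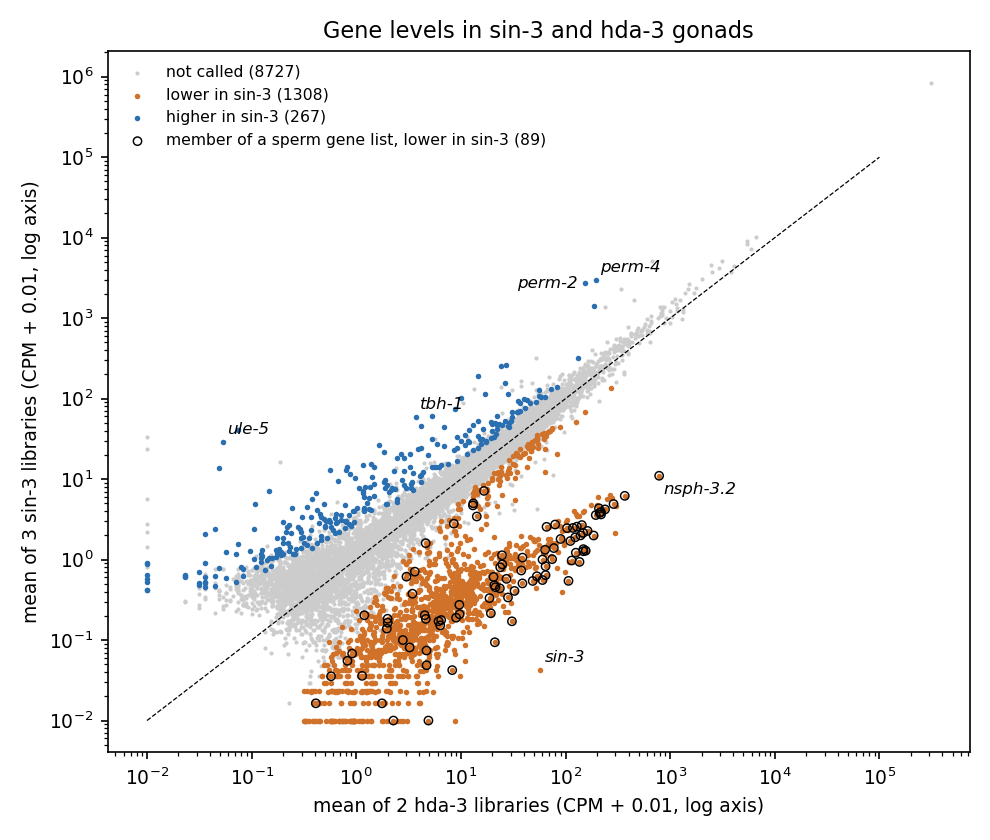
Mean level of each tested gene in the 3 sin-3 libraries (vertical, CPM + 0.01, log axis) against the 2 hda-3 libraries (horizontal, same scale); orange and blue points are genes called lower or higher in sin-3, rings are called members of the sperm gene lists, and the dashed line marks equal levels. The 1308 lower genes form a cloud well below the line, most of them under 1 CPM in sin-3, while the 267 higher genes lie in a band above it.

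Sperm genes made up 89 of the genes lower in sin-3. Of 147 genes in 4 lists of sperm genes, 103 were tested, 89 of these were lower and 0 higher (at an unadjusted p under 0.05, 1 was higher, and DESeq2 and limma-voom called 0 higher). In 94 every sin-3 library lay below both hda-3 libraries, an arrangement met by 22.3% of all genes tested. These lists were chosen with earlier results of these data known, and most of their tested members did not pass the filter without hda-3 libraries. The counts are therefore a description. The median of each of the 4 lists lay further above wt in hda-3 than in sin-3. More cells that make these transcripts and more RNA per cell cannot be told apart in bulk samples.

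Major sperm proteins build the cytoskeleton that moves the amoeboid sperm, and they also signal to oocytes to mature. Of 31 msp genes 29 were tested, 22 of which also passed the filter without hda-3 libraries, and all 29 tested were lower in sin-3. Their median difference was -6.06, or -6.02 with the genes unread in sin-3 placed at their lower bound. Against wt, the median was 0.76 in sin-3 and 6.82 in hda-3. The gene msp-152 stood at 162 and 150 CPM in hda-3, at 0.194, 1.63 and 2.01 CPM in sin-3 and at 2.71, 0.56 and 1.11 CPM in wt. The hda-3 libraries lay far above all others and the sin-3 and wt libraries overlapped. The difference for msp-152 was -6.74 (SE 0.67, adjusted p = 0.000275). For msp-65 the levels were 112 and 101 CPM in hda-3 and 0, 0.856 and 0.745 CPM in sin-3, a difference of -7.38 (SE 0.87, adjusted p = 0.000829). The sin-3 libraries had no read of msp-63 or msp-74, against 312 and 136 reads in hda-3, so that their levels were at least 148-fold and 64.7-fold lower, with a floor of 3 reads over the sin-3 group. With msp-38 the call was lost without hda-3 replicate 4 or 5 (adjusted p = 0.0668 and 0.0573). Counts of single msp genes are uncertain, since reads that fit several near-identical copies were not counted. Together the msp genes took 1.18 and 0.934% of the reads outside ribosomal RNA in hda-3, 0.000646, 0.0223 and 0.0241% in sin-3, and 0.00817, 0.00434 and 0.00312% in wt. The groups did not overlap, but an exact two-sided permutation test of 3 against 2 libraries can go no lower than its p of 0.1 (0.375 adjusted over 15 classes).

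Families of small proteins known from sperm went the same way. Of 75 genes named ssp, ssq, sss or nsp (with nspd and nsph), 37 were tested, 9 of them passing without hda-3 libraries, and 32 were lower, with a median difference of -5.41. The gene ssp-10 gave the most stable value. It stood at 115 and 114 CPM in hda-3, 0.484, 1.01 and 1.39 CPM in sin-3 and 0.677, 0.28 and 0.399 CPM in wt. The replicates of hda-3 differed by far less than the distance to any other library, and the difference was -6.74 (SE 0.34, adjusted p = 1.25e-06). The most abundant member, nsph-3.2, reached 834 and 735 CPM in hda-3 against 0.0968, 19.4 and 13.5 CPM in sin-3. In sin-3, replicate 3 lay far below replicates 4 and 5. The call (-6.12, adjusted p = 0.0194) was lost without sin-3 replicate 4 (adjusted p = 0.0582) or 5 (0.105) and without either hda-3 replicate 4 (0.149) or 5 (0.124). The list took 0.932 and 0.734% of the reads outside ribosomal RNA in hda-3 and 0.00233, 0.0206 and 0.0273% in sin-3. In wt it took 0.00668, 0.00337 and 0.00328%, below sin-3 replicates 4 and 5. In both shares the 2 sin-3 libraries with more were replicates 4 and 5. Of the other members, ssq-3 stood at 32.8 and 28.7 CPM in hda-3 and at 0, 0.311 and 0.172 CPM in sin-3 (-7.30, SE 0.61, adjusted p = 5.26e-05), and nsph-4.2 at 18.9 and 23.3 CPM against 0, 0.194 and 0.0573 CPM (-7.75, SE 0.68, adjusted p = 7.14e-05). Neither gene passed 1 CPM in any wt library.

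**Figure D2:**
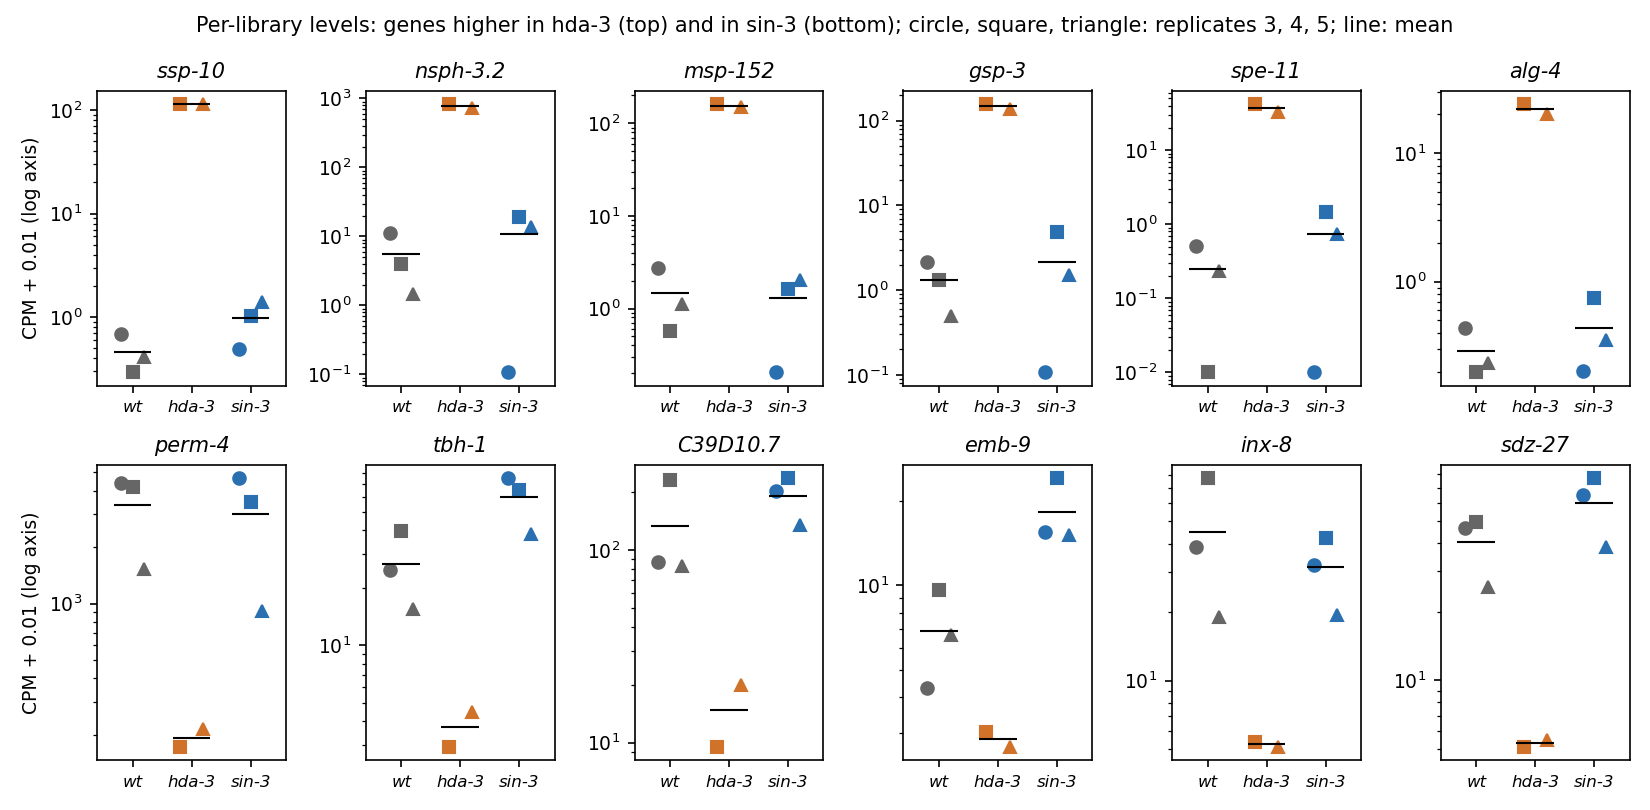
Level of 12 genes in each library (CPM + 0.01, log axis; grey wt, orange hda-3, blue sin-3; circle, square and triangle are replicates 3, 4 and 5; the line is the mean). In the upper row the 2 hda-3 libraries stand alone at the top and sin-3 overlaps wt in most panels; in the lower row the hda-3 libraries stand alone at the bottom.

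Genes that act in sperm function were lower in part. Of 30 spe and fer genes 27 were tested, 11 of them passing without hda-3 libraries, and 19 were lower, with a median of -2.55. The gene spe-11, whose sperm-supplied protein is needed by the early embryo, stood at 42.2 and 33.2 CPM in hda-3 and 0, 1.44 and 0.726 CPM in sin-3. Its difference was -5.53 (SE 0.75, adjusted p = 0.000697). The kinase gene spe-8 and spe-27, both of the sperm activation pathway, differed by -5.72 and -5.24 (adjusted p = 0.000354 and 0.00588). Not all sperm genes followed. The sperm surface gene spe-9 stood at 0.129 and 0.558 CPM in hda-3 and at 1.07, 1.05 and 0.134 CPM in sin-3 (1.09, adjusted p = 0.6), and fer-1, a ferlin of membrane fusion, differed by -2.15 (adjusted p = 0.093).

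Enzymes and regulators of spermatogenesis went the same way. Of 11 sperm phosphatase, kinase and related genes 10 were tested, 5 of them passing without hda-3 libraries, and 9 were lower, with a median of -4.24; without hda-3 replicate 4 the count was 5, and without hda-3 replicate 5 it was 6. The type 1 phosphatase genes gsp-3 and gsp-4, which act in sperm meiosis and motility, stood at 147 ± 14.5 and 103 ± 21.6 CPM in hda-3 (n = 2) and at 2.14 ± 2.43 and 2.45 ± 1.95 CPM in sin-3 (n = 3). Their differences were -6.005 and -5.27 (SE 0.91 and 0.77, adjusted p = 0.00281 and 0.0024), and without hda-3 replicate 4 the adjusted p of gsp-3 was 0.0505. The genes for the CPEB protein cpb-2 and for the sperm-delivered toxin peel-1 were lower by -5.17 and -5.14. Upstream, fog-3, a factor that commits germ cells to sperm, stood at 3.57 and 2.45 CPM in hda-3 and at 0.484, 0.428 and 0.898 CPM in sin-3 (-2.26, SE 0.52, adjusted p = 0.00969; 0.13 without hda-3 replicate 4). It was the only gene called in this fit among 20 tested sex determination genes, a count of 0 without hda-3 replicate 4 and of 3 without sin-3 replicate 5. Its partner fog-1 was at 23.2 and 20.96 CPM in hda-3 and at 34.9, 32.7 and 30.5 CPM in sin-3 (0.57, adjusted p = 0.092). The regulator spe-44, which turns on sperm genes, and the CPEB gene cpb-1 had another profile: both were close to wt in hda-3 and below wt in sin-3. The gene spe-44 stood at 13.9 and 12.3 CPM in hda-3, at 6.68, 4.51 and 3.76 CPM in sin-3 and at 11.9, 13.8 and 15.5 CPM in wt (-1.42, SE 0.30, adjusted p = 0.00562; 0.0519 without hda-3 replicate 4). For cpb-1 the difference was -1.43 (adjusted p = 0.0403), and of the 8 fits without 1 library the call held in those without sin-3 replicate 5 or wt replicate 3, with adjusted p of 0.0642 to 0.155 without each of the others.

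Genes outside these lists included other known sperm components, the spch, htas and smz genes and the symbol families below having been chosen after their values were seen. The protamine-like chromatin genes spch-1, spch-2 and spch-3 differed by -5.32, -5.07 and -5.53, and the sperm histone H2A variant gene htas-1 by -6.22. The calls of spch-1 and spch-3 were lost without sin-3 replicate 5 (adjusted p = 0.0789 and 0.0686), hda-3 replicate 4 (0.115 and 0.0802) or hda-3 replicate 5 (0.0828 and 0.0703). The sperm PDZ protein genes smz-1 and smz-2 differed by -4.64 and -5.41. By symbol, 8 of 9 tested irld genes, 7 of 8 ttbk genes (tau tubulin kinase-like) and all 6 msrp genes were lower and 0 of each were higher. How many members of these families passed the filter without hda-3 libraries was not counted, so these counts are a description. Of 49 clec genes (C-type lectins) 9 were lower, not far from the 12.7% of all genes, and their median was -0.38. Among genes the naming rule picked, T10E9.4 stood at 23.0 and 36.6 CPM in hda-3 and at 0.0968, 0.428 and 0.306 CPM in sin-3 (-6.57, SE 0.49, adjusted p = 4.13e-05). The cyclophilin gene cyn-2 stood at 35.6 and 30.9 CPM against 0.968, 1.83 and 1.76 CPM (-4.40, SE 0.33, adjusted p = 4.13e-05). The cytochrome c gene cyc-2.2 stood at 41.5 and 32.1 CPM against 0, 2.33 and 1.76 CPM (-4.61, SE 0.71, adjusted p = 0.00139). In T10E9.4 and cyn-2 the wt libraries were low like those of sin-3, and the same held for mpst-4 (-7.50), F17E9.5 (-7.01), F58E6.5 (-6.99) and clec-79 (-6.95). For cyc-2.2 the wt libraries stood at 0.169, 0.0933 and 0.0886 CPM, below sin-3 replicates 4 and 5 (sin-3 minus wt 3.69, adjusted p = 0.0547). The genes T10E9.4, cyc-2.2, mpst-4, F58E6.5 and clec-79 did not pass the filter without hda-3 libraries. Of the 1308 lower genes 1219 were in none of the 4 sperm lists, and 929 carry only a sequence name.

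Argonautes bind small RNAs and silence or license their targets. Of 48 tested genes in the small RNA list, 4 were lower and 1 higher in sin-3, and the median was -0.04. These shares were no larger than the 12.7% of all genes called lower and the 2.59% called higher. By symbol, 1 of 4 tested wago genes was lower, an Argonaute gene not in the list, counted after its values were seen. The lowest difference in the wago family was -4.43. Within the list, the Argonautes alg-3 and alg-4, which work in spermatogenesis, led the lower ones. The gene alg-4 stood at 24.1 and 20.1 CPM in hda-3 and at 0.194, 0.739 and 0.344 CPM in sin-3 (-5.61, SE 0.47, adjusted p = 5.26e-05), and alg-3 at 14.4 and 14.2 CPM against 0.871, 1.48 and 0.382 CPM (-4.005, SE 0.50, adjusted p = 0.000232). Both stood under 1 CPM in wt. Neither passed the filter without the hda-3 libraries, which 46 of the 48 genes did. The other 2, alg-5 and hrde-2, an Argonaute gene and a gene of nuclear RNA silencing, were moderately expressed in all groups and differed by -0.73 and -0.74 (adjusted p = 0.0174 and 0.0331); neither kept its call without hda-3 replicate 4 (0.116 and 0.204), hda-3 replicate 5 (0.131 and 0.124) or sin-3 replicate 3 (0.061 and 0.104), and hrde-2 also lost it without sin-3 replicate 4 (0.0612) or wt replicate 3 (0.0515). The Argonaute gene sago-1 was higher, at 6.49, 8.83 and 7.91 CPM in sin-3 against 3.29 and 2.62 CPM in hda-3 (1.39, adjusted p = 0.0187), but its call was lost without sin-3 replicate 4 (0.143), hda-3 replicate 4 (0.107) or hda-3 replicate 5 (0.222). The lower count was 2 without sin-3 replicate 3 or either hda-3 replicate, and it reached 7 when sin-3 replicate 5 was dropped.

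Other lower genes were expressed in wt: 103 of the 1308 had a mean of at least 10 CPM there. The gap junction gene inx-14, which the germ line uses to couple to sheath cells, stood at 24.7, 19.4 and 26.7 CPM in sin-3, 65.0 and 63.6 CPM in hda-3 and 108, 98.8 and 106 CPM in wt. The 3 groups did not overlap. It was lower in sin-3 than in hda-3 by -1.45 (SE 0.20, adjusted p = 0.000386), and its difference from wt was -2.14 in sin-3 and -0.70 in hda-3 (adjusted p = 0.000285 and 0.0346). The meiotic ATPase gene pch-2, a remodeller of chromosome axis proteins, stood at 14.3 and 14.9 CPM in hda-3 and at 4.65, 3.93 and 5.25 CPM in sin-3, against 18.3 ± 0.83 CPM in wt (n = 3). Its difference was -1.66 (SE 0.25, adjusted p = 0.000596), and hda-3 did not differ from wt beyond the test's threshold (-0.33, adjusted p = 0.398). The X-linked stomatin gene sto-4 stood at 17.2 and 13.5 CPM in hda-3, at 4.45, 4.39 and 3.96 CPM in sin-3 and at 13.3 ± 3.68 CPM in wt (-1.85, SE 0.30, adjusted p = 0.000939). In pch-2 and sto-4, then, the sin-3 libraries lay below both other groups. The span of pch-2 overlaps emb-27 (-0.22, adjusted p = 0.546) and that of inx-14 overlaps kbrl-1 (-1.33, adjusted p = 0.0896). The fucosyltransferase gene fut-3, named after its values were seen, stood at 14.1, 9.92 and 12.2 CPM in sin-3, 32.1 and 36.04 CPM in hda-3 and 71.8, 60.1 and 77.4 CPM in wt (-1.502, SE 0.21, adjusted p = 0.000424).

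Calls of other genes expressed in wt were less stable. The crossover gene him-14 and the helicase gene him-6 differed by -0.96 and -0.95 (adjusted p = 0.0461 and 0.00392); him-14 kept its call without sin-3 replicate 5 and lost it without each of the other 7 libraries (0.052 to 0.4), and him-6 lost it without hda-3 replicate 5 (0.09). The anaphase-promoting complex gene apc-10 differed by -1.16 (adjusted p = 0.0353) and lost its call without sin-3 replicate 3 (0.0823) or 4 (0.0842), hda-3 replicate 5 (0.285) or wt replicate 3 (0.0503). Of the 52 meiosis genes, all tested, 3 were lower and 2 higher; the higher ones were htp-2, a chromosome axis gene (1.42, adjusted p = 0.00529; 0.0781 without hda-3 replicate 4), and dsb-2, a gene of meiotic break formation (0.89, adjusted p = 0.0387), which of the 8 such fits kept its call in those without wt replicate 4 or 5 (0.0506 to 0.42 without the others). The list had 0 higher calls without hda-3 replicate 4, 5 lower ones without sin-3 replicate 5 and 1 without hda-3 replicate 5. The median of the meiosis list, 0.09, was -0.02 with RLE size factors and -0.03 with factors from autosomal genes. Among core histone genes, 24 of 72 were tested, 3 were lower and 0 higher, a share like the 12.7% of all genes called lower. The H3 variant gene his-70 stood at 5.28 and 6.57 CPM in hda-3 and at 0, 0 and 0.115 CPM in sin-3 (-6.50, adjusted p = 0.000174). It reached the test only through the hda-3 libraries. In contrast his-32 and his-37 (-1.73 and -1.35, adjusted p = 0.0121 and 0.00495) were highest in wt, at 7.22 ± 1.76 and 32.3 ± 10.71 CPM; without hda-3 replicate 4 their adjusted p was 0.21 and 0.0676.

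**Figure D3:**
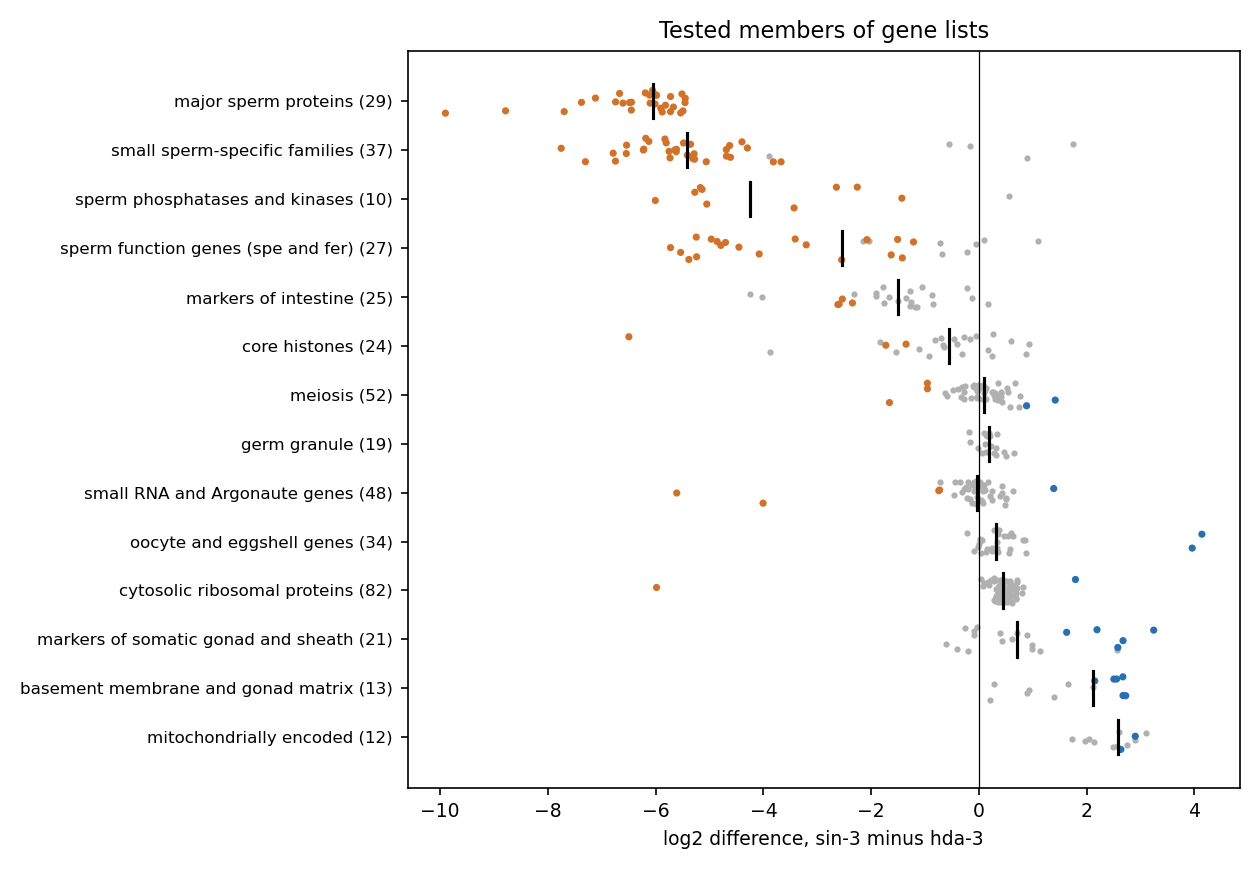
Difference of sin-3 minus hda-3 (log2) for each tested member of 14 gene lists, with the number tested in parentheses; orange and blue points were called, grey points were not, and the bar is the list's median. The 4 sperm lists sit far to the left with medians from -6.06 to -2.55, the germline lists centre near 0, and the basement membrane and mitochondrially encoded lists lie to the right.

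In the opposite direction, many genes were low in hda-3 and near or above the wt level in sin-3. The most abundant were perm-2 and perm-4, which encode proteins of the eggshell's outer vitelline layer and lie next to each other on chromosome IV (1126790 to 1128865 and 1121494 to 1125107). The gene perm-4 stood at 4657, 3460 and 918 CPM in sin-3, at 173 and 214 CPM in hda-3 and at 4366, 4195 and 1537 CPM in wt. The gene perm-2 stood at 4641, 2851 and 601 CPM in sin-3, at 130 and 176 CPM in hda-3 and at 3629, 3665 and 1240 CPM in wt. In both genes the hda-3 libraries lay below all others and sin-3 overlapped wt. The differences were 3.96 for perm-4 and 4.14 for perm-2 (SE 0.86 and 0.93, adjusted p = 0.00648 and 0.00823). Both calls were lost without hda-3 replicate 4 (adjusted p = 0.0912 for perm-4 and 0.102 for perm-2) or replicate 5 (0.0641 and 0.0656). These were the only members called among the 34 oocyte and eggshell genes (median 0.33), and that count was 4 without sin-3 replicate 5. The whole list took 4.47, 4.19 and 3.08% of reads outside ribosomal RNA in sin-3, 2.46 and 2.27% in hda-3 and 3.14, 4.36 and 2.41% in wt (exact permutation p = 0.2 for sin-3 against hda-3), so that hda-3 lay below sin-3 and overlapped wt. The vitelline layer gene cbd-1 differed by 0.57 (adjusted p = 0.65) and the oocyte maturation genes oma-1 and oma-2 by 0.81 and 0.87 (0.09 and 0.26).

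Some genes of the somatic sheath around the germ line were higher in sin-3. The gene tbh-1 encodes the enzyme that makes octopamine, and it is known to be expressed in gonadal sheath cells. It stood at 74.9, 65.3 and 38.3 CPM in sin-3, 2.92 and 4.47 CPM in hda-3 and 24.7, 39.6 and 15.4 CPM in wt (4.02, SE 0.47, adjusted p = 0.000213). All sin-3 and wt libraries lay above both hda-3 libraries. Of 21 tested sheath and somatic gonad markers 5 were higher in sin-3 and 0 lower (median 0.71), where 2.59% of all genes were called higher, and the other 16 did not pass the test. They were inx-8, inx-9, lim-7, itr-1 and the collagen gene emb-9, which is also in the matrix list. The neighbouring innexin genes inx-8 and inx-9 encode the sheath side of the gap junctions with germ cells. The gene inx-9 stood at 15.7, 17.4 and 9.34 CPM in sin-3 and at 1.81 and 1.12 CPM in hda-3 (3.25, SE 0.59, adjusted p = 0.00217), and inx-8 at 32.3, 42.4 and 19.4 CPM against 5.36 and 5.11 CPM (2.58, SE 0.58, adjusted p = 0.0142). The call of inx-8 was lost without sin-3 replicate 5 (0.0504), hda-3 replicate 4 (0.133) or hda-3 replicate 5 (0.126). The sheath transcription factor gene lim-7 (2.19, adjusted p = 0.0296) lost its call without sin-3 replicate 4 (0.0566) or 5 (0.0997), either hda-3 replicate (0.162 and 0.208) or wt replicate 4 (0.0532). The calcium channel gene itr-1 (1.63, adjusted p = 0.0389) lost it without sin-3 replicate 3 (0.051) or 4 (0.204), either hda-3 replicate (0.225 and 0.254) or wt replicate 3 (0.0551). The list's count was 3 without sin-3 replicate 4 and 2 without hda-3 replicate 4 or 5. Other sheath genes did not pass the test: the homeobox gene ceh-18 differed by 1.14 (adjusted p = 0.32) and the myosin gene nmy-1 by 0.98 (0.0707). In these bulk samples, fewer cells of a type and less RNA per cell cannot be told apart.

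The basement membrane showed the same direction. Of 13 tested genes of the gonad's matrix 6 were higher in sin-3 and 0 lower, with a median of 2.11, where 2.59% of all genes were called higher; 10 of the 13 passed the filter without hda-3 libraries. The type IV collagen chain gene emb-9 stood at 15.4, 23.99 and 15.1 CPM in sin-3, 3.002 and 2.66 CPM in hda-3 and 4.31, 9.61 and 6.64 CPM in wt (2.68, SE 0.40, adjusted p = 0.000596). The gene let-2 of its partner chain stood at 17.3, 30.6 and 25.9 CPM in sin-3 against 4.56 and 3.82 CPM in hda-3 (2.56, SE 0.46, adjusted p = 0.00207). The SPARC gene ost-1 stood at 45.2, 54.1 and 33.2 CPM against 8.13 and 5.67 CPM (2.67, SE 0.35, adjusted p = 0.000306). These 3 genes were called whichever library was dropped, and in each the sin-3 libraries lay above wt on average (emb-9 1.41, let-2 1.40 and ost-1 1.35 against wt) and hda-3 libraries below (-1.27, -1.16 and -1.32). The difference of hda-3 from wt did not pass the test for let-2 (adjusted p = 0.0928) and passed it for emb-9 and ost-1 (0.0382 and 0.0167). The nidogen gene nid-1, cle-1 (collagen XVIII) and mig-6 (papilin) were the others called; nid-1 and cle-1 lost their call without sin-3 replicate 4 (0.0575 and 0.0672) or hda-3 replicate 4 (0.152 and 0.139), and mig-6 without sin-3 replicate 4 (0.207), hda-3 replicate 4 (0.117), hda-3 replicate 5 (0.203) or wt replicate 4 (0.0557). The list's count fell to 3 without sin-3 replicate 4 or hda-3 replicate 4. The matrix genes took 0.0206, 0.0421 and 0.0359% of reads outside ribosomal RNA in sin-3, 0.00804 and 0.0061% in hda-3 and 0.00517, 0.0130 and 0.00889% in wt (exact permutation p = 0.2 for sin-3 against hda-3). Not called were the laminin gene lam-1 (0.20), the perlecan gene unc-52 (1.40) and the laminin alpha gene epi-1 (2.11), with adjusted p of 0.874, 0.184 and 0.129.

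Further genes with large positive differences were low in hda-3 and at or above the wt level in sin-3. The gene C39D10.7 on the X chromosome stood at 202, 235.3 and 134 CPM in sin-3, 9.52 and 19.9 CPM in hda-3 and 86.7, 229 and 82.7 CPM in wt (3.70, SE 0.56, adjusted p = 0.000849). The gene sdz-27 stood at 64.8, 77.0 and 38.6 CPM in sin-3, 5.099 and 5.46 CPM in hda-3 and 46.6, 49.5 and 25.7 CPM in wt (3.51, SE 0.38, adjusted p = 0.000141). For both, sin-3 and wt overlapped and hda-3 stood apart below. The galectin gene lec-5 (4.18), ccg-1 (4.001), pho-14 (3.79) and K07A1.13 (2.89) were likewise called in all fits without 1 library. So were the chitinase gene cht-3 (3.47) and the protease gene try-14 (3.29), named after their values were seen. The F-box gene fbxa-192, of the family that selects proteins for ubiquitin ligases, had 2 reads in hda-3 and 222 in sin-3, a pooled ratio of 77.8 (95% interval for counting error 21.3 to 646). Of 110 tested F-box and SKR genes 8 were higher and 6 lower, and 58 of the 110 passed the filter without hda-3 libraries; the higher count was 2 without hda-3 replicate 4 and 4 without hda-3 replicate 5 or sin-3 replicate 4. The lower ones had almost no read in sin-3 or wt, such as fbxa-155 with 1 read in sin-3 and 77 in hda-3. In the fit limited to genes that passed the filter without hda-3 libraries, 5 of the list were higher and 0 lower. Over all genes tested 2.59% were called higher and 12.7% lower.

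A smaller set was near 0 in wt and in hda-3 and high in some sin-3 libraries. The gene ule-5, named for the lumen of the uterus, stood at 61.4 and 25.7 CPM in sin-3 replicates 4 and 5 but at 0.29 CPM in replicate 3. The genes D1054.10 and Y37D8A.19 showed the same split, with 80.4 and 41.9 CPM and 26.1 and 13.9 CPM in replicates 4 and 5 against 0.29 and 0.581 CPM in replicate 3. All 3 genes were under 1 CPM in each wt and hda-3 library. Their differences, 9.58, 9.54 and 8.04, had SEs of 2.46, 2.36 and 2.004 and adjusted p of 0.0362, 0.031 and 0.032. The high values thus came from 2 of 3 sin-3 libraries. Without hda-3 replicate 4 the adjusted p was 0.381, 0.357 and 0.288, and without hda-3 replicate 5 it was 0.284, 0.258 and 0.301. Without sin-3 replicate 4 or 5 that of ule-5 was 0.0925 or 0.122, without wt replicate 4 it was 0.0504, and D1054.10 and Y37D8A.19 did not pass the filter without either of those sin-3 libraries. In contrast, T22B7.7 (6.39, 11.5 and 26.9 CPM in sin-3 against 1.29 and 0.988 CPM in hda-3; 3.71, adjusted p = 0.00255) and C27D8.3 (6.39, 9.72 and 22.5 CPM against 0.673 and 0.43 CPM; 4.52, adjusted p = 0.00034) were high in all 3 sin-3 libraries and kept their call in every such fit. Both stood higher in sin-3 than in wt, by 5.43 and 3.21 (adjusted p = 0.00216 and 0.00419).

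Transcripts of the mitochondrial genome had higher values in every sin-3 library than in hda-3, with a wide spread and few calls. All 12 protein-coding genes of that genome had every sin-3 library above both hda-3 libraries, an arrangement met by 17.5% of all genes tested, and the median difference was 2.58. The test called 2 of them, WBGene00010965 (2.90, adjusted p = 0.0351) and WBGene00010958 (2.64, adjusted p = 0.0102), while DESeq2 called 10 and limma-voom 7. Dropping wt replicate 3 raised that count to 11, wt replicate 4 to 4 and sin-3 replicate 5 to 3. Dropping hda-3 replicate 4 lowered it to 0, and dropping hda-3 replicate 5, wt replicate 5 or sin-3 replicate 3 or 4 lowered it to 1. Among these fits WBGene00010958 lost its call without hda-3 replicate 4 (0.122), and WBGene00010965 in 5 of the 8, those that lowered the count (0.0603 to 0.249). With the replicate block 0 of the 12 were called. Their reads made up 3.61, 3.54 and 1.35% of reads outside ribosomal RNA in sin-3, 0.445 and 0.610% in hda-3, and 0.177, 1.503 and 0.889% in wt (exact permutation p = 0.2). The wt libraries spanned the hda-3 range, and wt replicate 4 lay above sin-3 replicate 5. Cytosolic ribosomal protein genes, by contrast, overlapped: their share was 13.2, 10.9 and 4.198% in sin-3, 7.33 and 9.54% in hda-3 and 18.7, 17.5 and 15.9% in wt. Of the 82 ribosomal protein genes 1 was higher, rpl-41.1 (1.79, adjusted p = 0.0129), and 1 lower, rpl-42 (-5.98, adjusted p = 0.00063). The gene rpl-42 had 3 reads in sin-3 and 151 in hda-3 and reached the test only through the hda-3 libraries. The higher count was 16 when sin-3 replicate 5 was dropped, and rpl-41.1 lost its call without replicate 4 of sin-3 (0.063) or either hda-3 replicate (0.114 and 0.0836). The perm genes, the ribosomal protein share and the mitochondrial share were all lowest, within sin-3, in replicate 5, the library with the largest scaling factor; the part of library composition in these differences was not tested.

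**Figure D4:**
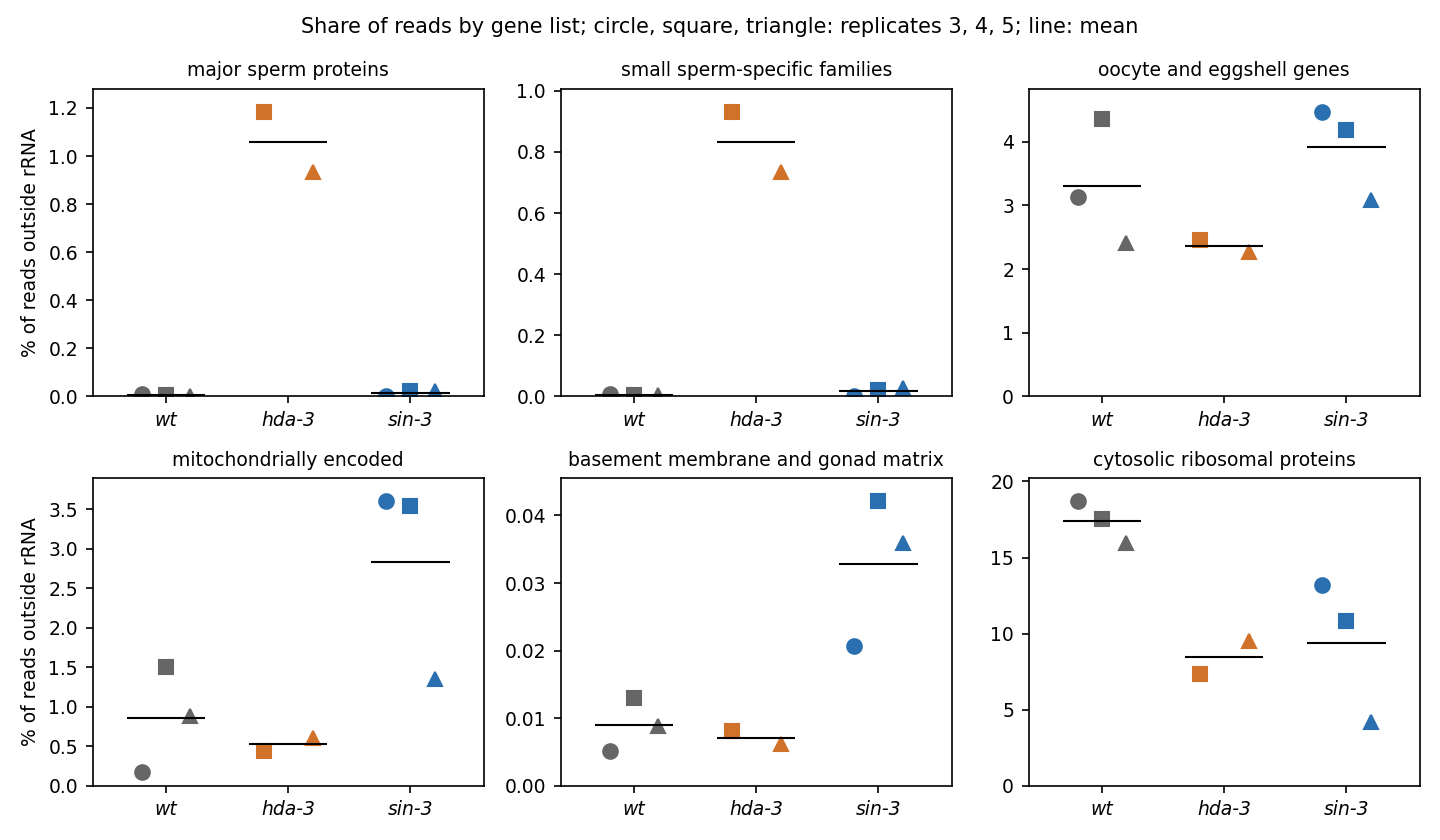
Share of reads outside ribosomal RNA taken by 6 gene lists in each library (percent, axes from 0; grey wt, orange hda-3, blue sin-3; circle, square and triangle are replicates 3, 4 and 5; the line is the mean). The 2 sperm lists take 0.734 to 1.18% in hda-3 and at most 0.0273% elsewhere, mitochondrially encoded and matrix genes are on average highest in sin-3, and ribosomal protein genes overlap between sin-3 and hda-3.

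Called genes were spread unevenly over the chromosomes, which was described and not tested. In the germ line the X is largely silent, and genes of sperm are rare on it. Of 1187 tested X-linked genes only 3 (0.253%) were lower in sin-3, against 1305 of 9099 autosomal genes (14.3%), and 49 (4.13%) were higher, against 215 (2.36%). Most of the lower genes did not pass the filter without hda-3 libraries. In the fit limited to genes that did, 1 X-linked and 273 autosomal genes were lower, and 26 and 102 were higher. The lower X-linked genes were sto-4, dhs-28 and ZC373.3, of which dhs-28 and ZC373.3 lost their call without hda-3 replicate 4 (adjusted p = 0.909 and 0.143) and dhs-28 also without each sin-3 replicate (0.119 to 0.136) and wt replicate 3 or 4 (0.067 and 0.0815). Among autosomes, chromosome IV had the largest share of lower genes (20.7%) and chromosome III the smallest (9.67%). Of the 147 genes in the sperm lists 19 lie on the X and 1 of these was tested. The median difference of X-linked genes was 0.33, and against wt it was 0.70 in sin-3 and 0.32 in hda-3. The X median depended on single libraries: it was -0.01 without sin-3 replicate 5 and 0.80 without hda-3 replicate 4. The number of higher X-linked genes was 20 without sin-3 replicate 4, 21 without hda-3 replicate 4 and 18 without hda-3 replicate 5; that of lower ones was 19 without sin-3 replicate 5, 1 without hda-3 replicate 4 and 13 without hda-3 replicate 5. Summed over all X-linked genes, the reads outside ribosomal RNA amounted to 2.37 and 1.45% in hda-3 libraries and to 1.32, 2.24 and 3.21% in sin-3 libraries, which overlapped (exact permutation p = 0.8).

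**Figure D5:**
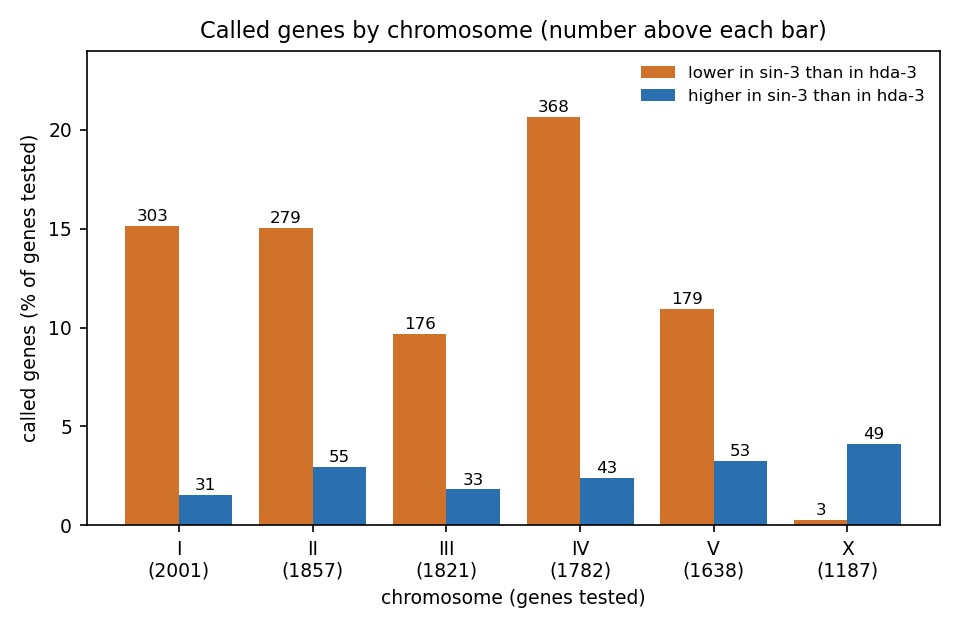
Share of tested genes called lower (orange) or higher (blue) in sin-3 than in hda-3 on each chromosome (percent; the number of genes stands above each bar, and the number tested below the axis). Lower genes make up 9.67 to 20.7% on the autosomes and 0.253% on the X, where higher genes outnumber them. Most of the lower genes did not pass the filter on low counts without hda-3 libraries.

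Markers of other tissues were counted in the same fit. Of 25 tested intestine markers 4 were lower in sin-3 and 0 higher, a share near the 12.7% of all genes called lower. The list's median was -1.51 against 0.06 over all genes, and DESeq2 called 6 lower and limma-voom 8. In 15 of the 25 every sin-3 library lay below both hda-3 libraries, and in 0 above. All genes tested met the arrangement below in 22.3%. Without hda-3 libraries 18 of the 25 passed the filter. The 4 edgeR calls were the protease genes cpr-4 (-2.62, adjusted p = 0.0193) and asp-1 (-2.59, 0.0075), the lysozyme gene lys-1 (-2.53, 0.0479) and the intestinal transcription factor gene elt-7 (-2.35, 0.0379). The count was 1 without sin-3 replicate 4 or hda-3 replicate 4, 2 without wt replicate 4 and 6 when replicate 5 of either mutant was dropped. The call of asp-1 held whichever library was dropped, cpr-4 lost it without sin-3 replicate 4 (0.0632) or hda-3 replicate 4 (0.373), lys-1 in 5 such fits (0.0532 to 0.163; kept without sin-3 replicates 3 and 5 and wt replicate 3) and elt-7 in 6 (0.0534 to 0.711; kept without sin-3 replicate 5 and hda-3 replicate 5). The list's summed level was 430.05 and 215 CPM in hda-3, 45.7, 135 and 120 CPM in sin-3 and 68.4, 30.99 and 10.72 CPM in wt. The defining intestinal factor gene elt-2 stood at 1.76 and 0.515 CPM in hda-3 and 0.29, 0.506 and 0.764 CPM in sin-3. Muscle markers summed to 666 and 194 CPM in hda-3, 390, 557 and 633 CPM in sin-3 and 341, 297 and 220.2 CPM in wt. Epidermis markers summed to 943 and 218 CPM in hda-3, 304, 400 and 482 CPM in sin-3 and 736, 156 and 84.0 CPM in wt. By summed CPM both were highest in hda-3 replicate 4, whereas by share of reads outside ribosomal RNA muscle markers were highest in sin-3 replicate 5 (0.2496% against 0.219% in hda-3 replicate 4). The muscle gene unc-22 was higher (2.37, adjusted p = 0.0479) and lost its call in 7 of the 8 fits without 1 library, all but the one without sin-3 replicate 5 (0.0568 to 0.351), and the epidermal factor gene elt-1 was lower (-2.06, adjusted p = 0.0306), a call lost without sin-3 replicate 3 (0.0671) or either hda-3 replicate (0.111 and 0.135). Neuron markers summed to 38.9 and 29.9 CPM in hda-3 and 38.7, 35.8 and 35.9 CPM in sin-3. The part of tissue carried over in the dissection was not tested.

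Many regulators gave no call. In 13 of the 36 lists no gene was called by edgeR, among them other deacetylases and sirtuins, the MEC and NuRD repressors, synMuv and DREAM repressors, the MES and histone methylation genes, dosage compensation, germ granule, and stem cell and meiotic entry genes. Summed over these lists, 342 memberships were tested, and at an unadjusted p under 0.05 there were 18 higher and 8 lower. DESeq2 called 1 higher and 2 lower among them, and limma-voom 3 higher and 1 lower. Their medians ranged from -0.08 to 0.53. Dropping sin-3 replicate 5 brought calls to several of these lists: 6 lower among MES and histone methylation genes, 6 lower and 1 higher among nuclear hormone receptors, 5 higher among mitochondrial ribosomal proteins, 4 lower among cell cycle genes, and 3 lower each among synMuv and DREAM genes and apoptosis and DNA damage genes. The member with the smallest p was lin-40 among MEC and NuRD genes (0.45, adjusted p = 0.151), lin-38 among synMuv and DREAM genes (1.57, 0.111), set-30 among histone methylation genes (1.59, 0.166), sdc-1 in dosage compensation (0.85, 0.136), pgl-3 in the germ granule (0.46, 0.41) and mex-3 among stem cell and meiotic entry genes (0.85, 0.0985). In the TOR and insulin list 1 of 17 was called: rict-1, the Rictor subunit of TOR complex 2, stood at 64.4, 59.8 and 85.9 CPM in sin-3 and 32.3 and 41.8 CPM in hda-3 (0.92, adjusted p = 0.0164; lost without hda-3 replicate 4, 0.267, or replicate 5, 0.0587).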

How the data were processed

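RNA was sequenced from dissected gonads, in reads of 50 bases. The tools named, with no role, by the submitters' processing notes are HTSeq 0.7.2, STAR 2.7.3a, DESeq2 1.36.0 and fastp 0.20.1. Neither the genome build nor the annotation or strand setting is given in the sources used here. What the authors deposited for each library is a table of raw, whole-number read counts by gene. Rows of the counter that name no gene were kept out (no feature 1.06 to 2.27%, ambiguous 0.673 to 1.55%, multi-mapped 3.03 to 5.57%). Since multi-mapped reads were not counted, members of near-identical families (msp, histones, nspd, nsph, ssp) are uncertain. Of the 98 genes picked by the naming rule, 22 overlap another coding gene and could share reads with it. Besides those described above, they include perm-2, tbh-1, inx-9, cyn-2, cyc-2.2, C27D8.3, Y37D8A.19, him-14 and hrde-2. Of 46934 gene IDs, 46923 were found in the Ensembl annotation of WBcel235 and 44112 had a symbol. The authors' tables of each mutant against wt were not used here.

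All 8 libraries were fitted by genotype with edgeR 4.0.16 (R 4.3.3, limma 3.58.1): TMM factors, filterByExpr (at least 10 counts, total at least 15), the robust quasi-likelihood test, and Benjamini-Hochberg adjustment over all genes tested. Calls were made at adjusted p-values below 0.05. The SE is the log2 difference divided by the square root of F. CPM uses TMM-scaled library sizes that include ribosomal RNA. Ratios for genes with 1 to 3 reads in a group have exact 95% intervals, and floors are 3 reads over the group; both cover counting error only. Shares were compared by an exact two-sided permutation test. DESeq2 1.42.0, limma-voom, other scalings and filters, a replicate block and fits without each library were alternatives. The scripts were tested on simulated counts.

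Members and gene lists were chosen with earlier results of these data known. Named were the 12 coding genes with the largest change in each direction (at least 10 CPM in the higher group, groups not overlapping), the 5 with the smallest p in each direction, up to 4 called members of each list or else the member with the smallest p, the sin-3 and class I deacetylase genes, and the 4 called genes with the largest change in each direction on the X and on autosomes. Other genes named were chosen after their values were seen, or are tissue and germ line checks.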

Additional observations from a re-analysis of the deposited data

How the results depend on the processing

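None of the 98 genes picked by the naming rule (the named genes of this section) changed direction in 1623 values under the alternatives. Of these values 153 fell short of the threshold and 12 newly passed it. Of the 83 named genes that were called, 50 kept the call without any 1 library. Genes mentioned outside the naming rule are not in these counts. Calls numbered 1091 to 2198 when 1 library was left out (higher 88 to 524, lower 1002 to 1674; on the X, higher 18 to 72 and lower 1 to 19; on autosomes, higher 68 to 448 and lower 1001 to 1655). A filter passed by the sin-3 and wt libraries alone, added after seeing the data, gave 404 calls, 130 higher and 274 lower. On the X 26 were higher and 1 lower, and on autosomes 102 and 273. That fit tested 7669 genes, which still held 236 of the higher and 303 of the lower genes of the main fit. Why some of these lost their call was not tested. X-linked lower genes numbered 5 with limma-voom and 14 with no filter on low counts, and autosomal higher genes 137 with only the sin-3 and hda-3 libraries; the cause was not tested. The replicate block gave 1351 calls, 227 higher and 1124 lower. The labels do not say whether the numbers mark a shared batch. Deviations of same-numbered sin-3 and hda-3 libraries correlated at -0.00191 for replicate 4 and -0.2 for replicate 5. For hda-3 and wt the values were 0.08 and 0.29, and for sin-3 and wt -0.09, 0.05 and 0.11 for replicates 3, 4 and 5. The deviations of the 2 hda-3 libraries mirror each other exactly, so these values cannot decide whether the numbers pair the libraries. RLE size factors gave 215 higher and 1363 lower genes, and TMM on autosomal genes 213 and 1372. Of list medians 50 of 646 moved by more than their spread, and of shares 16 of 90. With 2 hda-3 libraries, leaving out 1 removed 30 (replicate 4) or 22 (replicate 5) named calls. The planned search for promoter motifs was not run.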
